A study of Mus musculus with 9 samples.

Results

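The skeletal muscle contractile and calcium genes described here are 37 genes, taken by symbol from a table of ribosome-bound RNA in mouse adipose tissue that holds 22527 symbols. They were picked by name, with earlier results of these data known. All 37 were found, and each stood on 1 line of the table. They encode the thick and thin filaments of the sarcomere, its calcium sensor, its calcium store and release channel, the Z-disc, and the energy and oxygen proteins of the fibre. Levels are FPKM, the fragments mapped to a gene per kilobase of its transcript, scaled by the library's fragment total, a unit per length that can be compared between genes.

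In a muscle fibre, an action potential opens the ryanodine receptor of the sarcoplasmic reticulum, calcium flows out and binds troponin C, and the troponin and tropomyosin complex moves off actin so that myosin can pull. The SERCA pump then returns calcium to the store, where calsequestrin holds it, and parvalbumin buffers it in fast fibres. Fast and slow fibres use different genes for most of these parts, while adipocytes are not known for a sarcomere, although brown adipocytes share a developmental origin and several mitochondrial genes with muscle.

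The 9 libraries came from C57BL/6 mice aged 8 weeks, labelled wild type, with 3 libraries for each of 3 adipose depots. These were brown fat (BAT), inguinal white fat (iWAT, subcutaneous) and epididymal white fat (eWAT, visceral). Ribosomes were pulled down from frozen tissue with an antibody against GFP. The series title speaks of adipocytes and the deposited table is named for adiponectin, a gene of adipocytes, but the sample labels do not say which promoter or cells carried a GFP tag. They also do not say whether the libraries of a depot came from separate animals, so the spread behind each p-value is that of these samples and may be technical. Library BAT 3 is titled and sourced as brown fat, but its tissue field names inguinal white fat. It was kept in BAT by its title, and the brown fat uncoupling protein Ucp1 stood at 2626, 2434 and 3054 FPKM in BAT 1 to 3 and at 3.38 FPKM or less in every white library. Of 8 brown adipocyte markers, 7 were called higher in BAT than in iWAT, and of 8 white and pan-adipocyte markers 2 were called higher and 2 lower.

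Read totals were not used here, and depth was estimated from the steps that 1 read makes in low values. It came to 11.1 to 21.3 M reads in BAT and 16.0 M in eWAT 1, against 2.91 to 4.65 M in iWAT and 4.49 and 4.57 M in eWAT 2 and 3. Depot and depth therefore run together between BAT and iWAT and cannot be told apart there. Only eWAT has libraries on both sides, and eWAT 1 is given apart from eWAT 2 and 3 below. In pull-downs from pieces of tissue such as these, fewer cells of a type and less RNA per cell cannot be told apart.

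Promoter windows of 300 bases (250 before to 50 after the start site, RefSeq, GRCm38.p6) were matched by symbol for 29 of the 37 genes, 36 windows in all. The E-box CAGCTG, the form bound by myogenic factors such as MyoD, was found in 17 windows of 14 genes (47.2% of windows), against 16.3% of 32851 windows of all genes. The wider CANNTG, which includes CAGCTG, was in 80.6% against 72.3%, and TATAAA was in 22.2% against 13.6%. The serum response CArG box was in 13.9% against 1.63% (Acta1, Ldb3, Myh4 and Myl3), and the MEF2 site in 2.78% against 0.557% (Ttn alone). Both strands were searched, and a match is a description of these letters and not a bound site. One window is shown for each of the 3 patterns of level described below: the creatine kinase gene Ckm (chr7:19410844-19411143, plus strand), the actin gene Acta1 (chr8:123894726-123895025, minus strand) and the desmin gene Des (chr1:75360042-75360341, plus strand). Capitals mark CAGCTG in all 3, and in Acta1 also the CArG box and TATAAA.
Ckm: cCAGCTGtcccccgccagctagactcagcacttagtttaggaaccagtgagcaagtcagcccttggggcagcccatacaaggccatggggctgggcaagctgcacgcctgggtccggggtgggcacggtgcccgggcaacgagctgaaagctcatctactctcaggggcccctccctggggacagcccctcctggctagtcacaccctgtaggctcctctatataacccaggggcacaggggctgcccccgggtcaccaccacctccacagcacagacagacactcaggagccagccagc
Acta1: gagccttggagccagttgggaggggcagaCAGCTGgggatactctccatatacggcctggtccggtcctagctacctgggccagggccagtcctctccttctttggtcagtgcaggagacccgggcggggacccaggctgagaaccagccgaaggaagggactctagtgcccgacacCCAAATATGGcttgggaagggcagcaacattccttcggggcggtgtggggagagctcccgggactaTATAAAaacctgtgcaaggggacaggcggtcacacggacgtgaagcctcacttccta
Des: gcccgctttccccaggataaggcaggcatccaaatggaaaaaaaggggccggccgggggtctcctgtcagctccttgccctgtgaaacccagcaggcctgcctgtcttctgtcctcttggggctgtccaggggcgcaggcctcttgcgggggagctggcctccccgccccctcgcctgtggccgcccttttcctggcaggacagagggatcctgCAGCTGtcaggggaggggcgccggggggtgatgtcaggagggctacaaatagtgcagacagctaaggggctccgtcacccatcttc
The CAGCTG lies at the far end of the Ckm window, 249 to 244 bases before the start site, and at 221 to 216 bases before it in Acta1. In Des it lies 36 to 31 bases before the start.

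Across the 9 libraries the genes fell into 3 patterns, which were noticed in the values and are given as a description. Most fast-fibre genes were high in iWAT and in eWAT 2 and 3 and close to 0 in BAT and in eWAT 1. The genes Acta1 and Actn2 were present in every library. Des and Myl1 were highest in BAT. The genes together made up 0.0234% to 0.0448% of the summed FPKM in BAT, 0.469% to 0.721% in iWAT, 0.0670% in eWAT 1, and 0.337% and 0.281% in eWAT 2 and 3.

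**Figure D1:**
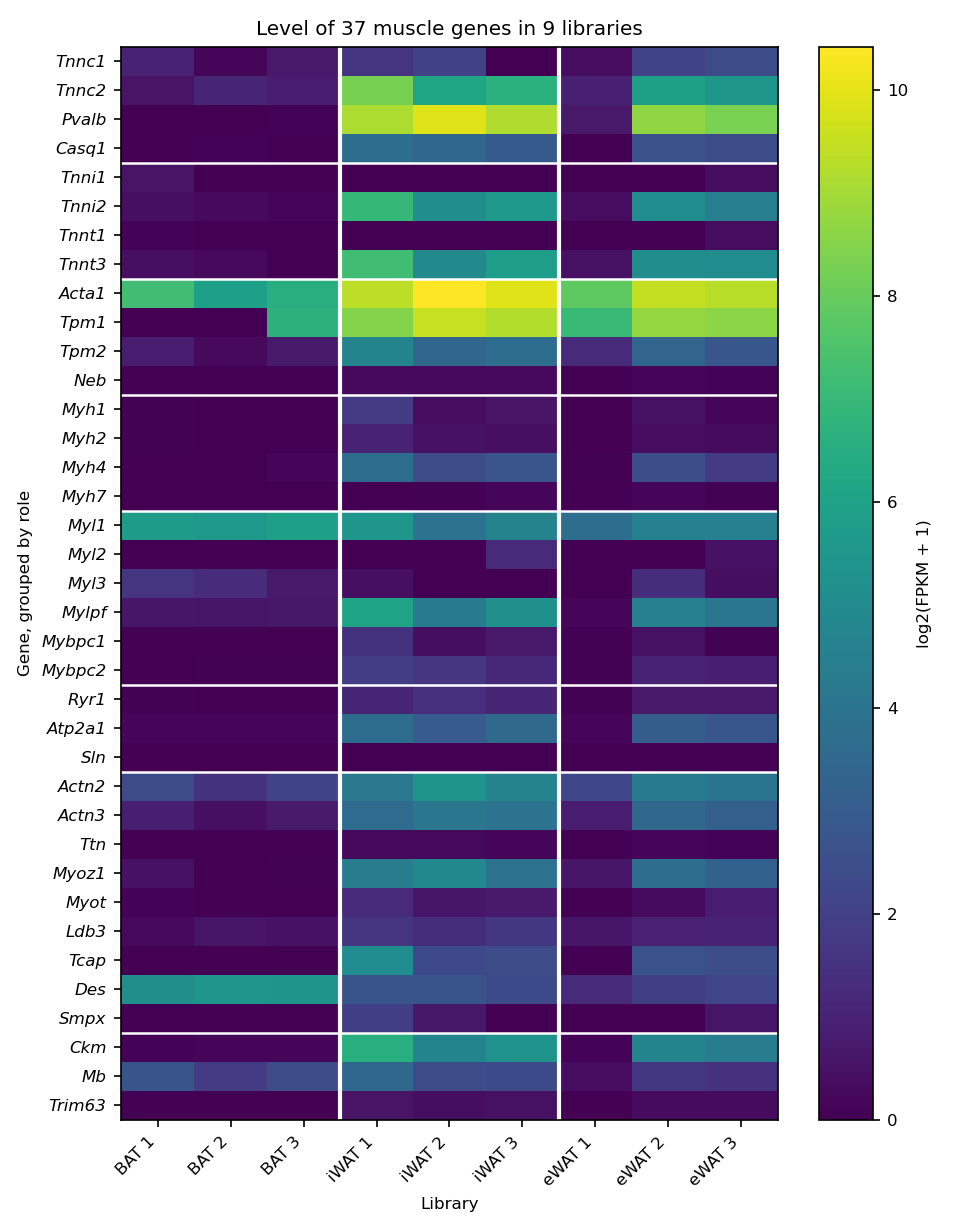
Level of the 37 genes in each library as log2(FPKM + 1), with 1 line per gene grouped by role and 1 column per library, and white lines between roles and depots. The BAT and eWAT 1 columns are dark for most fast-fibre genes, Acta1 is bright in all 9 libraries, and Des is brightest in BAT.

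Among the calcium sensors, Tnnc2, the troponin C of fast fibres (mm9 chromosome 2, 164602661 to 164605467), was at 0.482, 1.13 and 0.738 FPKM in BAT, 310, 69.3 and 101 in iWAT, and 0.893, 59.6 and 44.5 in eWAT. The eWAT 1 library lay within the range of BAT, and every iWAT library lay above every eWAT library. Tnnc1, the troponin C of slow fibres and heart, reached at most 4.31 FPKM and was listed at 0 in iWAT 3.

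The calcium buffer Pvalb (parvalbumin; mm9 chromosome 15, 78021544 to 78036830) was listed at 0, 0 and 0.0842 FPKM in BAT. Its iWAT libraries held 556, 959 and 576 FPKM, and its eWAT libraries 0.631, 409 and 323. By the estimated depth, its values stand for 0 to 1.01 reads in BAT, 7.86 in eWAT 1 and 1149 to 2592 in the 5 other libraries. Pvalb is also a gene of some inhibitory neurons. Of 8 neuron markers, 7 were under 1 FPKM in every library, and the eighth, the tubulin Tubb3, was at 20.2 to 411 FPKM. The calcium store protein Casq1 (calsequestrin of fast fibres) was at 0, 0.0814 and 0 FPKM in BAT, 12.7, 10.2 and 6.82 in iWAT, and 0, 5.03 and 4.37 in eWAT. Both genes separated BAT and eWAT 1 from the other libraries without overlap.

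The troponin subunits that hold and inhibit the thin filament differed by fibre type. Tnni2, the fast troponin I, was at 0.350, 0.201 and 0.0902 FPKM in BAT, 122, 33.2 and 48.6 in iWAT, and 0.285, 32.3 and 21.0 in eWAT. Tnnt3, the fast troponin T, was at 0.362, 0.218 and 0 in BAT, 150, 30.5 and 55.3 in iWAT, and 0.370, 33.9 and 32.7 in eWAT. For both, iWAT 1 was the highest library and eWAT 1 was no higher than 0.370 FPKM. Their slow counterparts Tnni1 and Tnnt1 were listed at 0 in 7 of 9 libraries each and reached at most 0.474 and 0.254 FPKM.

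In the thin filament itself, Acta1, the skeletal muscle actin (mm9 chromosome 8, 126415669 to 126418651), was at 148, 58.4 and 91.6 FPKM in BAT, 668, 1369 and 953 in iWAT, and 225, 714 and 638 in eWAT. Its lowest library was still near 1550 estimated reads, and 2.0% of its 50-base stretches also occur in the beta-actin gene Actb. Tpm1, a tropomyosin with muscle and non-muscle forms, was listed at 0 in BAT 1 and BAT 2 and at 102 FPKM in BAT 3. Its iWAT libraries held 358, 752 and 588 FPKM, and its eWAT libraries 129, 433 and 388. A listed 0 in FPKM can be a failed estimate, and the other libraries give Tpm1 at least 4261 estimated reads each. Tpm2, another tropomyosin, was at 0.806, 0.198 and 0.670 FPKM in BAT, 25.3, 9.71 and 12.3 in iWAT, and 1.41, 9.49 and 5.92 in eWAT. Acta1 was thus at least 58.4 FPKM in BAT and eWAT 1, where Tpm2 was at most 1.41. The filament ruler Neb (nebulin) stayed at or under 0.201 FPKM.

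The motor genes were led by Myh4, the heavy chain of the fastest fibres, at 0, 0.0128 and 0.107 FPKM in BAT, 11.7, 4.42 and 5.69 in iWAT, and 0.0412, 4.54 and 2.64 in eWAT. Myh4 made up 77.2% to 86.8% of the summed FPKM of the 4 heavy chains in the white libraries. The other fast chains Myh1 and Myh2 reached 2.49 and 0.981 FPKM, both in iWAT 1, and the slow chain Myh7 reached 0.129. Myh2, Myh1 and Myh4 lie beside each other on chromosome 11, and 26.9%, 26.7% and 18.9% of their 50-base stretches occur in another gene, so the split between the heavy chains is uncertain.

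Light chains did not all follow the heavy chains. Mylpf, the fast regulatory light chain, was at 0.567, 0.517 and 0.604 FPKM in BAT, 64.2, 17.9 and 36.5 in iWAT, and 0.131, 22.2 and 16.2 in eWAT. Myl1, the fast essential light chain, was at 53.8, 45.8 and 57.9 FPKM in BAT, 43.6, 14.9 and 24.2 in iWAT, and 12.6, 23.1 and 22.3 in eWAT. Every BAT library lay above every white one for Myl1 and below every one but eWAT 1 for Mylpf. Myl3, the slow and ventricular light chain, was at 2.02, 1.5 and 0.661 in BAT and between 0 and 1.58 in the white libraries. Myl2, the other slow light chain, was listed at 0 in 7 libraries, and the myosin binding proteins Mybpc1 and Mybpc2 reached 1.90 and 2.71 FPKM in iWAT 1.

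Of the genes that move calcium across the sarcoplasmic reticulum, Atp2a1, the SERCA1 pump of fast fibres, was at 0.110, 0.102 and 0.141 FPKM in BAT, 11.9, 7.07 and 11 in iWAT, and 0.134, 7.40 and 5.96 in eWAT. Ryr1, the skeletal ryanodine receptor, was at 0.0400 FPKM or less in BAT, at 1.12 to 1.64 in iWAT, and at 0.0520, 0.652 and 0.677 in eWAT. Sln, the small SERCA inhibitor sarcolipin, was listed at 0 in all 9 libraries. The pump and the channel therefore shared the pattern of Casq1, and no level of sarcolipin was recorded beside them.

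**Figure D2:**
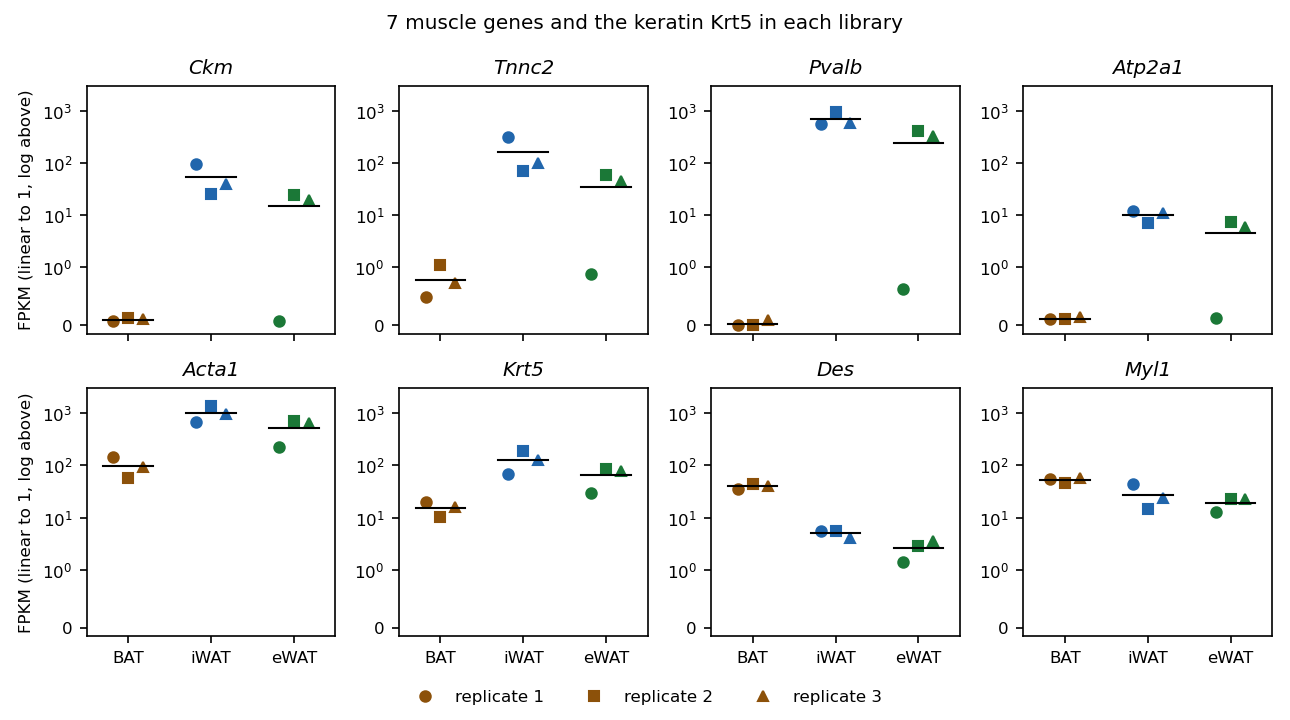
FPKM of 7 muscle genes and the keratin Krt5 in each library, 1 panel per gene, on an axis that is linear to 1 and logarithmic above. Symbols are replicate numbers and bars are depot means; for Ckm, Tnnc2, Pvalb and Atp2a1 the eWAT 1 circle lies with BAT, while Acta1 and Krt5 were present in all 9 libraries and Des and Myl1 were highest in BAT.

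The Z-disc genes spanned all 3 patterns. Actn2, an alpha-actinin of skeletal muscle and heart, was at 4.36, 1.88 and 3.29 FPKM in BAT, 16.8, 40.7 and 24.2 in iWAT, and 3.71, 19.4 and 15.8 in eWAT. Actn3, the alpha-actinin of fast fibres, was at 0.834, 0.357 and 0.692 in BAT, 11.3, 16.1 and 14.6 in iWAT, and 0.744, 10.1 and 7.88 in eWAT. Both were highest in iWAT 2, unlike the fast troponins. Myoz1, a calcineurin-binding protein of fast fibres, was at 0.404, 0 and 0.0511 FPKM in BAT, 19.8, 28.1 and 13.8 in iWAT, and 0.537, 12.5 and 8.39 in eWAT. Tcap, the titin cap protein, was listed at 0 in BAT 1 to 3 and eWAT 1, against 32.4, 3.97 and 4.17 in iWAT, and 5.22 and 4.54 in eWAT 2 and 3. Tcap in iWAT 1 was far above the 4 other libraries that carried it.

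Des, the intermediate filament protein that ties Z-discs together (mm9 chromosome 1, 75356904 to 75365154), ran the other way, at 34.7, 43.4 and 41.2 FPKM in BAT, 5.56, 5.45 and 4.10 in iWAT, and 1.38, 2.85 and 3.53 in eWAT. The 3 depots did not overlap for Des. Desmin is also a protein of smooth muscle cells and pericytes. Of 5 tested smooth muscle markers 3 were called lower in BAT than in iWAT and none higher, where 22.9% of all tested genes were called lower. The actin Acta2 was at 0.228 to 0.407 FPKM in BAT against 1.09 to 20.0 elsewhere, and all 9 markers summed to 5.37 to 10.2 FPKM in BAT, 24 to 43.8 in iWAT and 29.2 to 56.8 in eWAT. The smooth muscle myosin Myh11 was at 0.143 FPKM or less in every library. Of the remaining genes of the Z-disc and titin group, Ldb3 reached 2.18 FPKM, Smpx 2.79, Myot 1.37 and the giant protein Ttn 0.179.

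Ckm, the creatine kinase that buffers ATP in muscle (mm9 chromosome 7, 19996443 to 20006932), was at 0.0671, 0.120 and 0.104 FPKM in BAT, 94.0, 25.3 and 39.5 in iWAT, and 0.0802, 24.8 and 19.5 in eWAT. These values stand for 0.910 to 3.10 estimated reads in BAT, 1.56 in eWAT 1 and 107 to 532 in the others. Mb, the oxygen store myoglobin, was at 5.47, 2.61 and 4.17 FPKM in BAT, 10.6, 4.39 and 4.05 in iWAT, and 0.285, 2.21 and 1.80 in eWAT. BAT and iWAT overlapped for Mb, while eWAT lay below both. The ubiquitin ligase Trim63 stayed at or under 0.472 FPKM.

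By role, the genes of fast fibres summed to more than those of slow fibres in all 9 libraries. The 14 fast-fibre genes summed to 48.5 to 60.5 FPKM in BAT, most of it Myl1, and to 896 to 1318 in iWAT, 16.4 in eWAT 1, and 621 and 491 in eWAT 2 and 3. The 6 slow-fibre genes summed to 0.276 to 5.58 FPKM over the 9 libraries. Acta1, which is not among the 14, was above their sum in every library but iWAT 1. Long transcripts tended to be low. Over the 34 genes with a level above 0 in iWAT, the rank correlation of mean FPKM with the longest annotated transcript was -0.46 (Spearman), as a description of genes that share libraries. The 3 genes with transcripts of at least 10000 bases, Ttn, Neb and Ryr1, had iWAT means of 0.157, 0.190 and 1.30 FPKM.

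**Figure D3:**
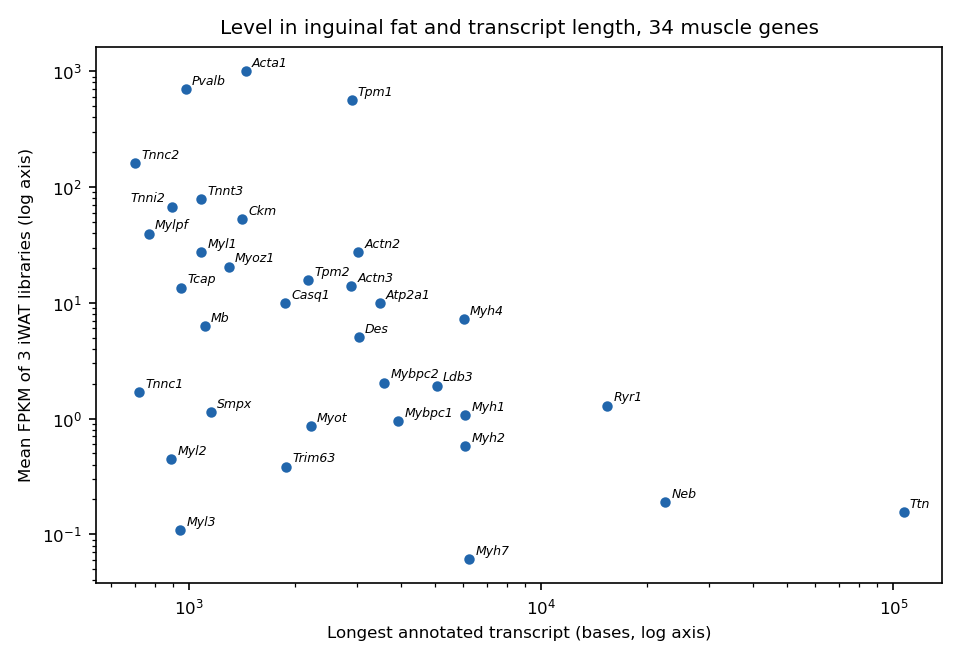
Mean FPKM of 3 iWAT libraries against the longest annotated transcript in bases, both on log axes, 1 point for each of 34 genes with a level above 0. The short transcripts Acta1, Pvalb and Tnnc2 are at the top left, and Neb and Ttn, the longest, are at the lower right.

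Levels of genes within 1 library can be set against each other as ratios, in which the scaling of the library cancels. In the 5 white libraries that carried the fast genes (iWAT 1 to 3, eWAT 2 and 3), Tnni2 kept a ratio to Tnnc2 of 0.392 to 0.541, so that the highest ratio was 1.38 times the lowest. Of 9920 genes compared in the same way, with a median of 8.91 times, Tnni2 was the second steadiest against Tnnc2. Ckm (1.44 times), Tnnt3 (1.67), Mylpf (1.80) and Mb (1.85) were also among the 10 steadiest. So were Jsrp1 (1.80) and 3 genes in none of the lists used here, Gnal (1.68), Itm2a (1.68) and Zbp1 (1.77). The steadiest was Cox6a2, the muscle form of a cytochrome oxidase subunit, at 1.37 times. The reference genes Tnnc2 and Krt5 were chosen after their values were seen, and these ratios carry no test.

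Not all of the genes kept a fixed ratio to Tnnc2. The ratio of Pvalb ran from 1.79 in iWAT 1 to 13.8 in iWAT 2, a span of 7.71 times. Acta1 spanned 9.16 times and Actn2 10.8 times, more than the median gene. Acta1 and Actn2 instead kept their ratio to Krt5, a keratin of basal epithelium, over all 9 libraries. Acta1 was at 5.66 to 9.78 times the FPKM of Krt5, and 73 of 9850 genes (0.741%) were as steady or steadier. The ratio of Actn2 lay between 0.127 and 0.246, with 142 genes as steady or steadier. Tubb3, from the list of neuron markers, was at 1.76 to 2.59 times Krt5. Its span of 1.47 times was narrower than that of Acta1 (1.73) or Actn2 (1.94), so a steady ratio to Krt5 was not particular to epithelial genes. The 10 steadiest against Krt5 were the keratins Krt15, Krt13 and Krt17, and Actc1, Aldoart2, Tnc, H2-M3, Mrc2, Tmsb4x and Marcksl1. In the same libraries the ratio to Krt5 spanned 187 times for Tnnc2, 503 times for Ckm and 145 times for Des.

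Krt5 was at 19.9, 10.3 and 15.8 FPKM in BAT, 68.3, 188 and 127 in iWAT, and 29.3, 87.3 and 79.7 in eWAT. The cardiac actin gene Actc1, which is not one of the 37, ran from 0.736 to 1.01 times Krt5, and the cardiac markers Nppa, Nppb and Myl7 were listed at 0 throughout. The 10 epithelial markers, of which 4 were under 1 FPKM in every library, summed to 26.1 to 51.5 FPKM in BAT, 163 to 440 in iWAT, 66.4 in eWAT 1, and 220 and 195 in eWAT 2 and 3. Krt5, Krt14 and Krt15 made up most of each sum and, like Acta1 and Actn2, were lower in every BAT library and in eWAT 1 than in the 5 others. Other keratins of the list did not share this order. Krt10 was at 2.15 to 2.77 FPKM in BAT and 0.451 to 2.06 in iWAT, Krt19 was at 1.52 in eWAT 1 against 1.14 to 2.97 in iWAT, and Krt18 was listed at 0 in BAT and iWAT. What part the epithelial markers or the depth had in those levels was not tested.

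**Figure D4:**
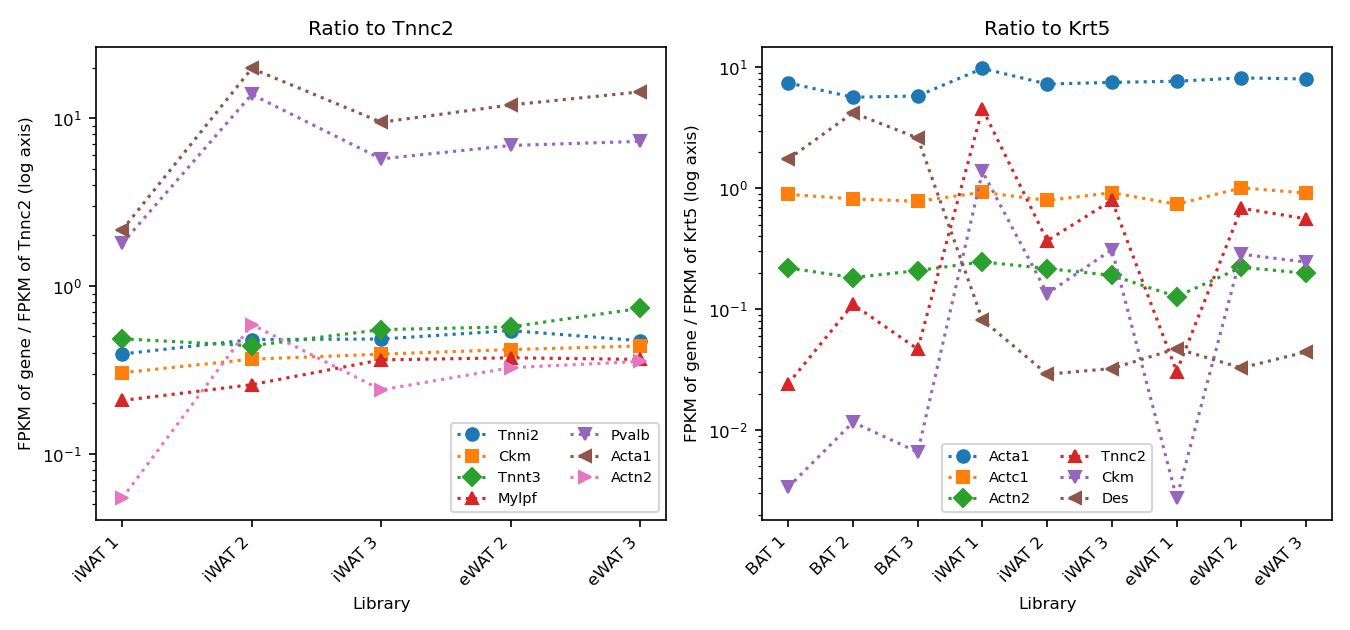
Ratio of FPKM to Tnnc2 in the 5 white libraries that carried fast-fibre genes (left) and to Krt5 in all 9 libraries (right), on log axes, 1 point per gene and library with dotted lines only to guide the eye. On the left Tnni2, Ckm, Tnnt3 and Mylpf are nearly level while Acta1, Pvalb and Actn2 are lowest in iWAT 1; on the right Acta1, Actc1 and Actn2 are nearly level while Tnnc2, Ckm and Des are not.

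Depots were compared gene by gene with limma on log2(FPKM + 1), a scale that understates the change of low genes. A gene was tested when it reached 1 FPKM in at least 3 libraries and was called at an adjusted p (Benjamini-Hochberg over 10374 genes) under 0.05. Of the 37 genes, 24 were tested and 13 were not: Tnni1, Tnnt1, Neb, Myh1, Myh2, Myh7, Myl2, Mybpc1, Sln, Ttn, Myot, Smpx and Trim63. In 16 of the 24 no BAT library reached 1 FPKM, so these were tested only because the white libraries reached it, which favours a lower value in BAT. The counts, medians and differences in BAT below are therefore given as a description.

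Between BAT and iWAT, 22 of the 24 tested genes were called, 19 lower and 3 higher in BAT, where 57.5% of all tested genes were called, 22.9% lower and 34.5% higher. The same 19 and 3 genes had no overlap between the depots, against 27.2% and 38.5% of all tested genes. The median difference of the 24 was -3.26 on the log2 scale, against 0.23 over all genes. That all-gene median fell to 0.04 under median-ratio scaling and under quantile normalization. The split over all tested genes then moved from 3583 higher and 2378 lower to 3008 and 2913 under the first, and to 2936 and 2851 under the second. Leaving out single libraries gave 17 to 22 called genes, and 4289 to 6829 over all tested genes in place of 5961.

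Pvalb had the largest difference between BAT and iWAT, -9.36 (SE 1.63). Tnnc2 was lower in BAT with a difference of -6.21 (SE 1.09), and Ckm with -5.41 (SE 0.99). For Pvalb, Ckm and Tnnc2 no p is given. No BAT library reached 1 FPKM for Pvalb and Ckm, and only BAT 2 did for Tnnc2, so white libraries carried each past the filter. Of the genes at 1 FPKM or more in every BAT library, Acta1 had a difference of -3.35 (SE 0.48, limma adjusted p = 0.000371) and Actn2 of -2.71 (SE 0.53, limma adjusted p = 0.002). Tpm1 had a difference of -6.85 (SE 1.45), a value that rests on the listed 0 in BAT 1 and 2. The SERCA1 pump Atp2a1 had one of -3.27 (SE 0.61), Casq1 of -3.37 (SE 0.57) and Ryr1 of -1.17 (SE 0.22). The difference of Tcap, -3.25, is set by the added 1 FPKM, since all BAT libraries were listed at 0.

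Des was higher in BAT than in iWAT by 2.76 (SE 0.27, limma adjusted p = 4.25e-05), and this call was kept in all 19 alternatives run. Myl1 was higher by 1.03 (SE 0.37, limma adjusted p = 0.0348). Myl3 was higher by 1.08 (SE 0.35), and no p is given for it. Only BAT 1, BAT 2 and eWAT 2 carried Myl3 past the filter, and no iWAT library reached 1 FPKM. Its values stand for 7.61 to 23.8 estimated reads in BAT and 0 to 1.13 in iWAT. The Myl1 call was lost without BAT 1, BAT 2, BAT 3, iWAT 2 or iWAT 3 in turn (limma adjusted p = 0.0615 to 0.117), and the Myl3 call without iWAT 2 or iWAT 3. Without a filter on low values both calls were lost (limma adjusted p = 0.0727 for Myl1), and under quantile normalization that of Myl1 (0.0981). Mb (-0.46, SE 0.42, limma adjusted p = 0.363) and Tnnc1 (-0.58, SE 0.60, limma adjusted p = 0.422) were not called.

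**Figure D5:**
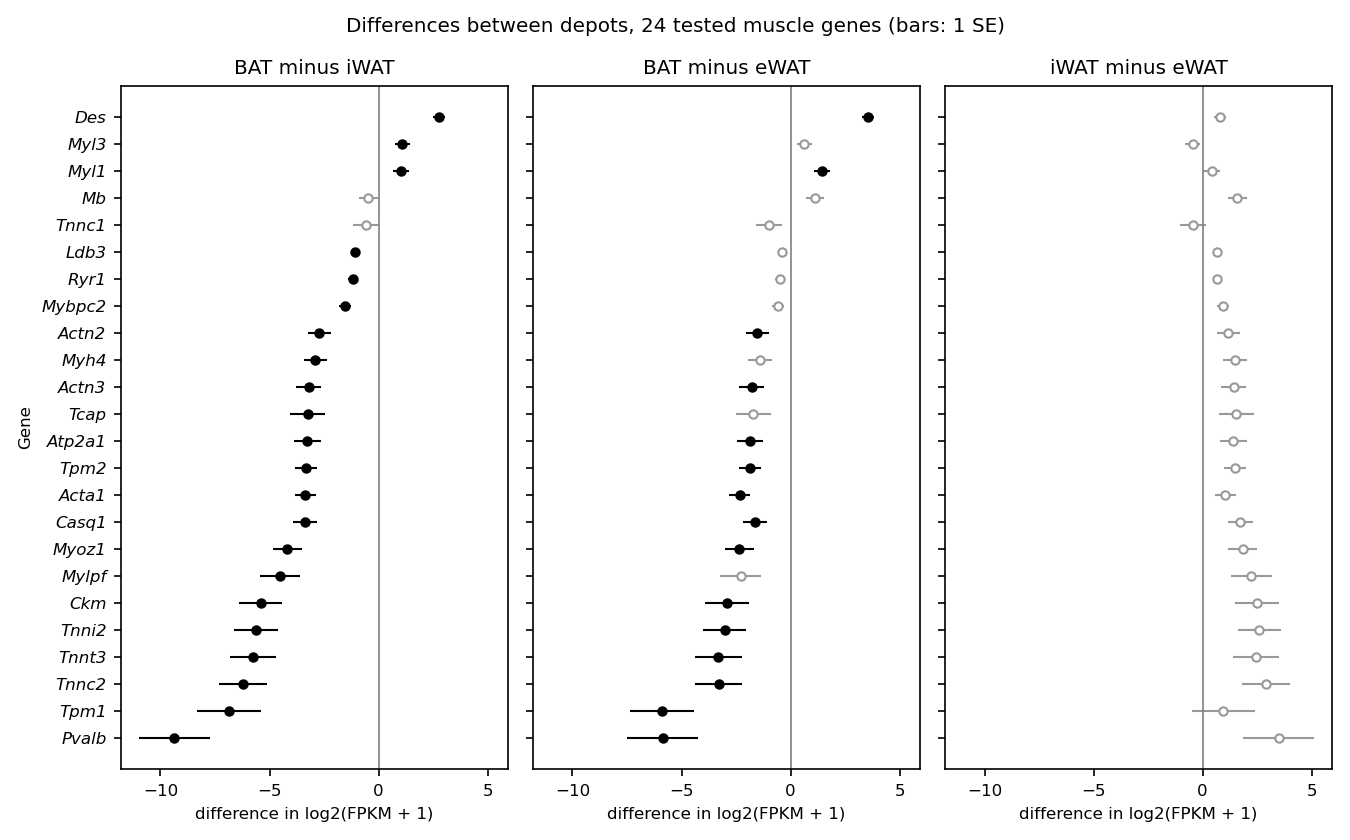
Difference between depots in log2(FPKM + 1) for the 24 tested genes, with 1 panel per comparison and bars of 1 SE; filled points were called at an adjusted p under 0.05 and open points were not. Pvalb and Tpm1 lie farthest to the left in both panels with BAT, Des lies farthest to the right, and all points of iWAT against eWAT are open.

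Between BAT and eWAT, 15 of the 24 tested genes were called, 13 lower and 2 higher in BAT, where 33.7% of all tested genes were called, 13.5% lower and 20.2% higher. Without overlap, 8 genes were lower and 3 higher, against 22.7% and 32% of all tested genes. The median difference was -1.74, against -0.02 over all genes. This comparison shares the BAT libraries with the one above. Des was higher by 3.55 (SE 0.27, limma adjusted p = 1.08e-05) and Myl1 by 1.43 (SE 0.37, limma adjusted p = 0.0131). Lower in BAT were Acta1 at -2.33 (SE 0.48, limma adjusted p = 0.00419), Pvalb at -5.87 (SE 1.63) and Tnnc2 at -3.30 (SE 1.09). The call of Pvalb was lost in 7 of 18 alternatives and that of Tnnc2 in 9 of 19, in both without a filter, without any single BAT library, without eWAT 2 or eWAT 3 and with eWAT 1 alone. That of Tnnc2 was also lost without iWAT 3 and with these 2 depots fitted alone.

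The count for BAT against eWAT turned on single libraries. It was 6 without BAT 1, 4 without BAT 2 or BAT 3, 8 without iWAT 3, 4 without eWAT 2 or eWAT 3, and 21 without eWAT 1. Over all tested genes the share called moved from 33.7% to 22.5% without BAT 1, 21.2% and 21.1% without BAT 2 and BAT 3, 33.1% without iWAT 3, 24.4% and 24.7% without eWAT 2 and eWAT 3, and 40.2% without eWAT 1. With eWAT 1 alone standing for the depot, 3 of 22 tested genes were called (14.3% of all tested genes), Des, Myl1 and Mb, all higher in BAT. In such a fit the lone library is assumed to vary like those of the other depots, since it has no replicate of its own. The difference of Ckm was then 0.02, that of Casq1 0.04 and that of Tnnc2 -0.10. Acta1 was then at -1.27 and not called (limma adjusted p = 0.181). A fit of the 4 libraries above 10 M estimated reads alone was chosen after the data were seen. The filter then needed 1 FPKM in 3 of them, so genes low in BAT could not be tested. Only 5 of the genes were, all at 1 FPKM or more in every BAT library. Differences there were -1.27 for Acta1, -0.22 for Actn2 and 1.94 for Mb, and Des and Myl1 were also higher in BAT. The spread was taken from BAT alone. Of the calls in the 9-library fit, that of Des was kept in all 20 alternatives and that of Myl1 was lost without BAT 3 (limma adjusted p = 0.0538).

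Between iWAT and eWAT, limma called none of the 24 tested genes, where 1.74% of all tested genes were called. At an unadjusted p under 0.05 there were 17, and the share of all tested genes at that threshold was not counted. In 13 every iWAT library lay above every eWAT library, against 3.1% of all tested genes. Of those 13, Mybpc2, Ryr1 and Ldb3 reached 1 FPKM only in iWAT, so they were tested only through the depot where they were higher. All 24 had a lower value in eWAT 1 than in eWAT 2 and 3, which was not counted over all tested genes. The median difference was 1.45, against -0.18 over all genes. Tnnc2 was at 2.91 (SE 1.09, limma adjusted p = 0.145), Pvalb at 3.49 (SE 1.63, limma adjusted p = 0.203) and Mb at 1.59 (SE 0.42, limma adjusted p = 0.08). Quantile normalization called 1 gene, Mybpc2, where 1.36% of all tested genes were called. The fit without iWAT 1 called 1 of 21 (Mb, limma adjusted p = 0.0469), where 32.3% of all tested genes were called. With eWAT 1 alone, a single library, standing for its depot, the differences were 6.11 for Tnnc2, 8.69 for Pvalb and 2.41 for Mb. A fit of iWAT against eWAT 2 and 3 alone, the libraries below 5 M estimated reads, was chosen after the data were seen. It called none of 23 tested, where 0.105% of all tested genes were called.

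Genes of the same pathways outside the 37 were taken from lists and counted in BAT against iWAT, where 34.5% of all tested genes were called higher and 22.9% lower in BAT. With so few genes in each list, the counts are a description and are not set apart from these shares by a test. Of 10 tested further sarcomere genes, 2 were higher and 5 lower in BAT, and 22 of the 39 in the table were under 1 FPKM in every library. Among them the small heat shock protein Cryab, which protects desmin filaments, was lower in BAT (-2.66, SE 0.23), as was the tropomyosin Tpm3 (-2.05, SE 0.35), while Fhl1 was higher (1.85, SE 0.50). The ubiquitin ligase Fbxo32 was lower (-1.73, SE 0.46). Of 9 tested muscle calcium and excitation genes, 2 were higher and 3 lower. The calcium-binding S100a1 was at 1453, 1524 and 1481 FPKM in BAT against 232 to 714 in iWAT (1.97, SE 0.39), Srl was higher (1.62, SE 0.24), and Jsrp1 (-2.09, SE 0.43) and Cacng1 (-1.38, SE 0.29) were lower.

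Calcium release in cells outside muscle uses inositol trisphosphate receptors and other SERCA pumps, and of 11 such genes tested, 2 were higher and 3 lower in BAT. The receptors Itpr2 (1.95, SE 0.18) and Itpr1 (1.58, SE 0.20) were higher, and Itpr3 (-1.73, SE 0.42) and the pump Atp2a3 (-0.88, SE 0.23) were lower. The widely used pump Atp2a2 was at 35.2 to 37.3 FPKM in BAT and 30.3 to 74.1 in iWAT and was not called. It was above Atp2a1 in every library.

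Of 14 tested muscle energy genes, 6 were higher and 5 lower in BAT than in iWAT. The fatty acid carrier Fabp3 (7.69, SE 0.30) and the oxidase subunits Cox7a1 (7.29, SE 0.43) and Cox8b (5.58, SE 0.27), which muscle and brown fat share, were higher, while the muscle glycogen phosphorylase Pygm was lower (-3.58, SE 0.68). Of 7 tested membrane genes, Sgcb was higher (1.34, SE 0.40) and Mustn1 (-2.51, SE 0.70) and dystrophin Dmd (-0.81, SE 0.24) were lower. Among the myogenic transcription factors tested, Mef2c (-1.75, SE 0.49) and Six4 (-0.91, SE 0.31) were lower. Myf5 was listed at 0 in every library, and 7 of the 12 myogenic factors were under 1 FPKM throughout.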

How the data were processed

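Ribosome-bound RNA of 9 libraries was available as 1 table of FPKM values, which the authors made with TopHat and Cufflinks on mouse build mm9, per the submitters' processing notes. Versions, annotation, strand setting and filters are not given in the sources used here. The header names no unit: the deposited values were read as FPKM because Cufflinks is named and the values are fractional with unequal column sums. The table has 22996 lines for 22527 symbols. A symbol on several lines (259 of them) was represented by its line of highest mean, and none of the 37 genes is among them.

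Values were analysed as log2(FPKM + 1) with limma 3.58.1 in R 4.3.3 (empirical Bayes with an intensity trend), all 9 libraries in 1 fit and a contrast for each pair of depots. The 10374 genes that reached 1 FPKM in 3 or more libraries were tested, with Benjamini-Hochberg adjustment over them. The script was tested on simulated data. No count test was run, since the table holds no counts. Depth was estimated from single-read steps of genes with 1 transcript of at least 1000 bases (length offset 200 bases). Between 44.3% (eWAT 1) and 63.5% (iWAT 3) of the low values came out as whole reads to a tolerance of 0.15. Some values would meet that tolerance at any depth, and the depth was picked to fit them. Estimated depths and reads are therefore approximate, least firmly set in eWAT 1, and the number of reads limits the precision of low values. Between 9018 and 9958 genes per library reached 1 FPKM. Gene coordinates and transcript lengths came from GENCODE vM1 on mm9, and promoters from RefSeq. Ratios and ranks were computed with Python 3.11.15 and pandas 2.3.3.

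The members and the lists (further sarcomere, calcium, energy, membrane and transcription factor genes; smooth muscle, cardiac, neuron, epithelial and adipocyte markers) were chosen with earlier results of these data known. Genes with at least 5 FPKM in a library are given library by library and the others by range. Of each other list, up to 4 called genes with the largest difference between BAT and iWAT are named. Genes named outside this rule (Myh11, Nppa, Nppb, Myl7, Myf5, Atp2a2, Cox6a2) are defining or reference genes chosen after their values were seen. The 10 steadiest genes against Tnnc2 and against Krt5 are named by rank.

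Replicate numbers were checked for pairing. For iWAT and eWAT, libraries sharing a number deviated together from their depot means (r = 0.634, 0.534 and 0.165 across genes), each over 0.1. Of libraries with different numbers, iWAT 2 with eWAT 3 (0.228) and iWAT 3 with eWAT 2 (0.105) also exceeded 0.1. The others ran from -0.576 to -0.195. Whether the numbers pair these depots was not tested, and the labels are silent on it. For libraries sharing a number, the correlations were -0.324, -0.225 and 0.121 for BAT with iWAT, and -0.388, -0.202 and 0.103 for BAT with eWAT.

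Alternatives changed the pseudocount to 0.1, dropped the filter or set it at a mean of 5 FPKM, scaled libraries by median ratios or quantiles, and fitted the depots of a comparison alone. Others used array weights, a block for the replicate number, each library left out in turn, eWAT 1 alone for its depot, and summed lines of repeated symbols. Fits within deep and within shallow libraries were added after the data were seen. The result of 1 gene of the other lists is not reported here.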

Additional observations from a re-analysis of the deposited data

How the results depend on the processing

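For BAT against iWAT the number of genes called stayed within 1.5 times of 22 in all 19 alternatives (15 to 26). The share of all tested genes called ran from 29% to 66.8% in them. With single libraries left out, the number was 17 to 22 and that share 42.4% to 66.4%. For BAT against eWAT the 15 became 4 of 36 tested without a filter, where 15.7% of all tested genes were called. It became 7 of 9 with these depots fitted alone (47.2% of all tested genes) and 23 of 24 with array weights (63.9%). With the depots fitted alone, the 15 genes under 1 FPKM in BAT and eWAT 1, such as Ckm, Pvalb and Tnni2, did not pass the filter. With single libraries left out the count for BAT against eWAT was 4 to 21, where 21.1% to 43% of all tested genes were called. For iWAT against eWAT the count of 0 became 1 under quantile normalization, and was 0 to 1 with single libraries left out. With eWAT 1 alone it became 11 of 22 tested, where 0.273% of all tested genes were called. In that fit a single library without a replicate stands for eWAT, so no conclusion is drawn from its count. With the replicate block the counts were 22, 15 and 0, as without it, and no call of a single tested member changed.

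Signs changed for Tnnc1 between BAT and iWAT with array weights (0.034) and between iWAT and eWAT without iWAT 3 (from -1.07 to 0.17 with single libraries left out). They changed for Ckm (0.022), Casq1 (0.038) and Mylpf (0.47) between BAT and eWAT with eWAT 1 alone. The causes were not tested, beyond the change of libraries. Over all alternatives, single-gene differences kept sign and side of the threshold in 420 of 431 values for BAT against iWAT, 310 of 423 for BAT against eWAT and 441 of 455 for iWAT against eWAT. The count over all genes for iWAT against eWAT, 180, ran from 10 to 3315, the highest without iWAT 1. The array-weight fit stopped before its convergence tolerance. Genes near 1 estimated read in the deep libraries cannot be ranked there.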
